A study of Mus musculus with 17 samples.

Results

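The data described here are the transcript levels of 7 transcription factor genes in Kupffer cells (KCs), which are liver-resident macrophages, of the mouse: Id1, Id2 and Id3, which encode inhibitor of DNA binding proteins; Tcf3, Tcf4 and Tcf12, which encode the E proteins; and Elk1, which encodes an ETS-family factor. They were taken by gene symbol, without regard to their values, and the 7 are part of the 25124 genes listed in each of 3 tables. Bulk RNA-sequencing of sorted KCs was deposited for 17 samples. Tim4+CD206+ KCs came from untreated tumour-free mice (n = 3) and from mice that carried a tumour for 2 weeks after pancreatic carcinoma cells of the KPC model were injected into the portal vein (n = 3). Tim4+CD206hi KCs were sorted from the same kinds of mice (n = 3 and n = 3). The remaining table held KCs of untreated Id3f/f mice, whose Id3 alleles are flanked by recombination sites but intact (n = 3), and of untreated Clec4fCreId3f/f mice (n = 2), in which a Cre recombinase driven by the KC gene Clec4f deletes Id3 in KCs. The controls of that table lacked the Cre, so the Cre allele as well as the deletion differed between its groups. The labels give no age or sex. The values are log2 normalised counts on a regularised scale, which pulls low counts toward the mean of the gene and so understates differences of genes with few reads in any group. Each table was transformed on its own, so levels in different tables are given side by side and were not tested against each other.

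Helix-loop-helix proteins bind DNA as dimers through a basic stretch next to the helices. E proteins have this stretch and pair with each other or with tissue-specific partners on E-box sites, whose core reads CANNTG. ID proteins have the helices but lack the basic stretch, so an E protein paired with an ID protein is held off DNA. Id genes are classical targets of BMP and SMAD signalling, and ID3 is needed for the development of KCs. ELK1 is a ternary complex factor, which joins serum response factor at the promoters of early genes, is phosphorylated by ERK, and can also be bound by ID proteins. The study asked whether ID3 limits the activity of E2A, the product of Tcf3, and of ELK1 at Sirpa, which encodes a receptor that restrains phagocytosis. The comparisons below ask how the transcripts of these factors stood in each KC subset with and without tumour, and in KCs without Id3.

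The study designed 6 amplicons for E2A and 12 for ELK1 at Sirpa. The predicted sites of the amplicons that were shared by both factors are shown because they give the sequences the factors were tested on. Capitals mark the E-box core in the E2A sites and the ETS core GGAA, or TTCC on the other strand, in the ELK1 sites.

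E2A-2: aaCAGCTGgcc
Elk1-3: acaGGAAgtt
E2A-4: caCAGGTGttt
Elk1-9: tacttctgct

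E2A-2 and Elk1-3 were amplified by the same primers, as were E2A-4 and Elk1-9. Of the 7 predicted E2A sequences 2 held CANNTG, the pair printed here, and 12 of the 14 predicted ELK1 sequences held GGAA. The sites were not placed on a genome here.

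Gene positions are on the mouse build GRCm38 (mm10). Id3 is on chromosome 4 at 136143497 to 136145755 on the plus strand, Id1 on chromosome 2 at 152736251 to 152737410 on the plus strand and Id2 on chromosome 12 at 25093799 to 25097140 on the minus strand. Tcf3 is on chromosome 10 at 80409514 to 80433647 on the minus strand and Tcf12 on chromosome 9 at 71842688 to 72111871 on the minus strand. Elk1 is on chromosome X at 20933395 to 20950608 on the minus strand and shares 76 exonic bases with Uxt, so reads from those bases could not be assigned to either gene alone. The 250 bases before the RefSeq start sites of Id3, Id2, Tcf3, Tcf12 and Elk1 were searched on both strands for CANNTG, for CAGCTG (one form of CANNTG), for the ETS sequence CCGGAAGT and for GGCGCC, a sequence bound by BMP-activated SMADs. Those of Tcf3, Tcf12 and Elk1 are shown, up to the start of the annotated gene, because they hold the motif of a factor of the group and lie outside the gene. Capitals mark matches to these motifs.

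Tcf3, chr10:80433648-80433885, minus strand: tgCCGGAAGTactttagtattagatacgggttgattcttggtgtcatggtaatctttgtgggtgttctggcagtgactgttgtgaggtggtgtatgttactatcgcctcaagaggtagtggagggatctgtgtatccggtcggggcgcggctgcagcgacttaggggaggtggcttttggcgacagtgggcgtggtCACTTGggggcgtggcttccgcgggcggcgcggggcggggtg
Tcf12, chr9:72111872-72112069, minus strand: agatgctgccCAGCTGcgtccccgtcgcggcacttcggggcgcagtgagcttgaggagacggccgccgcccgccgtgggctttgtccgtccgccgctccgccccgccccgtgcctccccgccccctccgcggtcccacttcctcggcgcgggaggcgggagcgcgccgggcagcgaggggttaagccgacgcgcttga
Elk1, chrX:20950609-20950858, minus strand: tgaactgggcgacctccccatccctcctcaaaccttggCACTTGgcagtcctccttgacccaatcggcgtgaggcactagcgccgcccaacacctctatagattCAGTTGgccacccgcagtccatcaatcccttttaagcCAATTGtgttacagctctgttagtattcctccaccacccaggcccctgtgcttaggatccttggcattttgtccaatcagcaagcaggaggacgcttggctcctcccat

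The Tcf3 window held 1 CCGGAAGT, which 2.88% of 32851 mouse promoter windows of the same length hold, and 1 CANNTG, which 66.2% hold. The Elk1 window held 3 CANNTG and no CCGGAAGT, and the Tcf12 window shown 1 CANNTG, which was a CAGCTG. Of 2 further Tcf12 windows at start sites inside the gene, 1 held a CANNTG. The Id2 window held 1 CAGCTG, a form present in 13.001% of windows, and 1 GGCGCC, present in 9.59%, whereas the Id3 window held none of these motifs. These matches are a description of the letters only.

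Id3 was the most abundant of the 7 transcripts per kb of transcript length in both KC subsets. To compare genes, the length of the longest RefSeq-linked transcript was taken from each value. In tumour-free Tim4+CD206+ KCs the log2 level per kb was 14.39 ± 0.07 for Id3, 12.77 ± 0.11 for Id2 and 10.72 ± 0.46 for Id1 (SD, n = 3). On the same scale Tcf3 stood at 7.77 ± 1.52, Elk1 at 7.30 ± 0.32, Tcf4 at 5.83 ± 0.21 and Tcf12 at 4.61 ± 0.61 (SD, n = 3). The samples of Tcf3 and Elk1 overlapped and those of every other pair of neighbours in this order did not. The same order, with the same overlap, was found in tumour samples of this subset.

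In tumour-free Tim4+CD206hi KCs the order per kb was again Id3 (13.83 ± 0.65), Id2 (12.79 ± 0.31) and Id1 (10.66 ± 1.27), followed by Tcf4 (9.53 ± 0.30), Tcf3 (8.07 ± 1.64), Tcf12 (7.50 ± 0.09) and Elk1 (6.96 ± 0.43; SD, n = 3 for each). Here Id3 overlapped Id2, Id1 overlapped Tcf4, Tcf4 overlapped Tcf3 and Tcf3 overlapped Tcf12. In tumour samples of this subset Tcf3 (9.35 ± 0.28, SD, n = 3) was listed above Tcf4 (9.01 ± 0.09, SD, n = 3), and no neighbours overlapped. Tcf4, at 69343356 to 69689079 on the plus strand of chromosome 18, was thus listed first among the E proteins in tumour-free Tim4+CD206hi KCs but stood below Elk1 in Tim4+CD206+ KCs.

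In Id3f/f KCs Id2 (12.68 ± 0.15) stood above Id3 (12.27 ± 0.18) and Id1 (11.46 ± 0.16; log2 per kb, SD, n = 3). Of the E proteins Tcf3 was listed first at 8.72 ± 0.19, then Tcf4 at 7.23 ± 0.30 and Tcf12 at 5.85 ± 0.08, with Elk1 at 6.27 ± 0.11 between the last pair (SD, n = 3). No neighbours overlapped. In Clec4fCreId3f/f KCs the order per kb was Id2 (12.46), Id1 (10.74), Id3 (9.47), Tcf3 (9.29), Tcf4 (7.18), Elk1 (6.24) and Tcf12 (5.92), again with no overlap (means, n = 2). The regularised scale pulls low counts toward the mean of the gene. The level of Id3 after the deletion, and its place above Tcf3, may therefore be overstated. With all annotated exons of a gene counted as its length, Id3 stood above Id2 in Id3f/f KCs (11.78 against 11.74), Elk1 stood above Tcf4 in both genotypes and above Tcf12 in the Tim4+CD206hi groups.

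**Figure D1:**
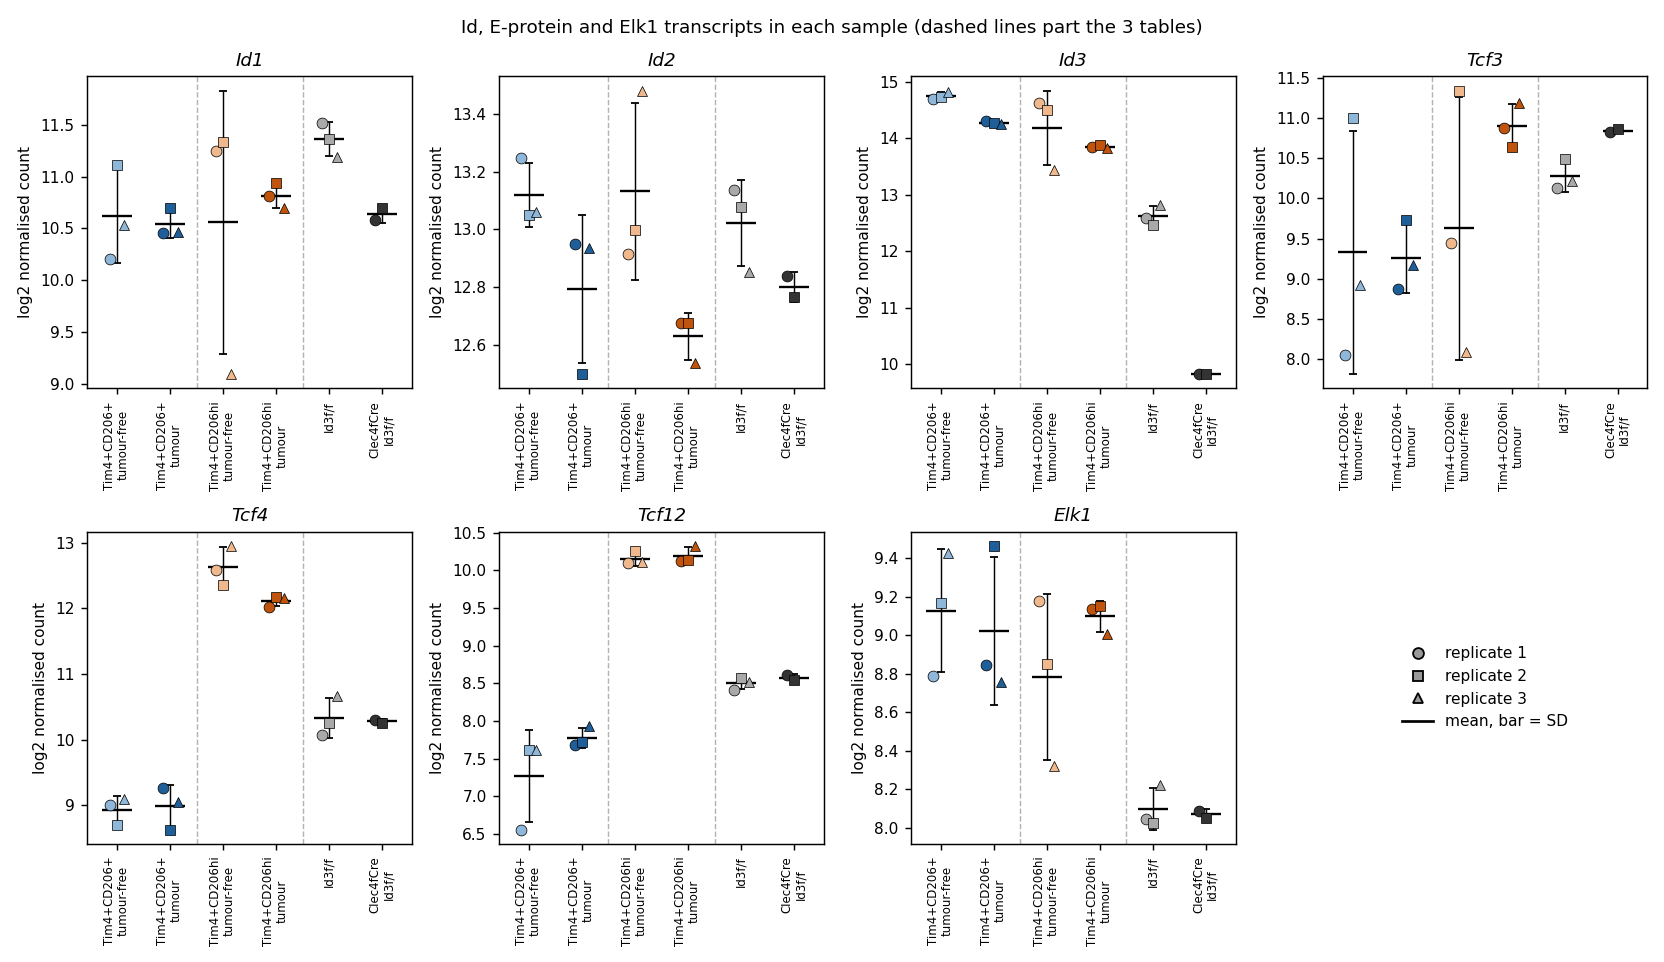
Level of each of the 7 transcripts in every sample, as log2 normalised count (vertical axes differ between panels). Points are samples, shaped by replicate number, lines are group means and bars are SD; dashed lines part the 3 separately transformed tables. Id3 lies at 14.24 to 14.82 in Tim4+CD206+ KCs and at 9.82 to 9.83 in Clec4fCreId3f/f KCs, and Tcf3 and Id1 spread widely among tumour-free samples.

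The summed Id transcripts exceeded the summed E-protein transcripts in every sample. Back-transformed and per kb, the ratio of Id1, Id2 and Id3 to Tcf3, Tcf4 and Tcf12 was 179.6, 38.9 and 119 in tumour-free Tim4+CD206+ KCs and 89.4, 59.1 and 77.1 with tumour, so the groups overlapped. The ratio in Tim4+CD206hi KCs was 25.2, 16.2 and 15.3 without tumour and 14.3, 15.1 and 11.6 with tumour. Each tumour sample lay below each tumour-free one, though only narrowly (15.1 against 15.3). These samples also held transcripts of liver endothelial markers, given below, and the part of such cells in the ratio was not tested. In the Id3 table the ratio was 27.0, 20.3 and 21.6 in Id3f/f KCs and 9.82 and 9.56 in Clec4fCreId3f/f KCs, with no overlap. These ratios are descriptions of transcripts and say nothing of the proteins.

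Id3 made up 69.8%, 70.1% and 73.1% of the summed Id transcripts per kb in tumour-free Tim4+CD206+ KCs and 67.1%, 70.9% and 66.4% with tumour. Its share in Tim4+CD206hi KCs was 69.5%, 66.2% and 47.4% without tumour and 61.9%, 61.9% and 63.7% with tumour. In Id3f/f KCs it was 32.0%, 31.4% and 40.5%, and in Clec4fCreId3f/f KCs 8.76% and 8.88%. In the latter Id2 made up 71.0% and 68.8% of the Id transcripts. The share of Id3 after the deletion may be overstated by the regularised scale.

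**Figure D2:**
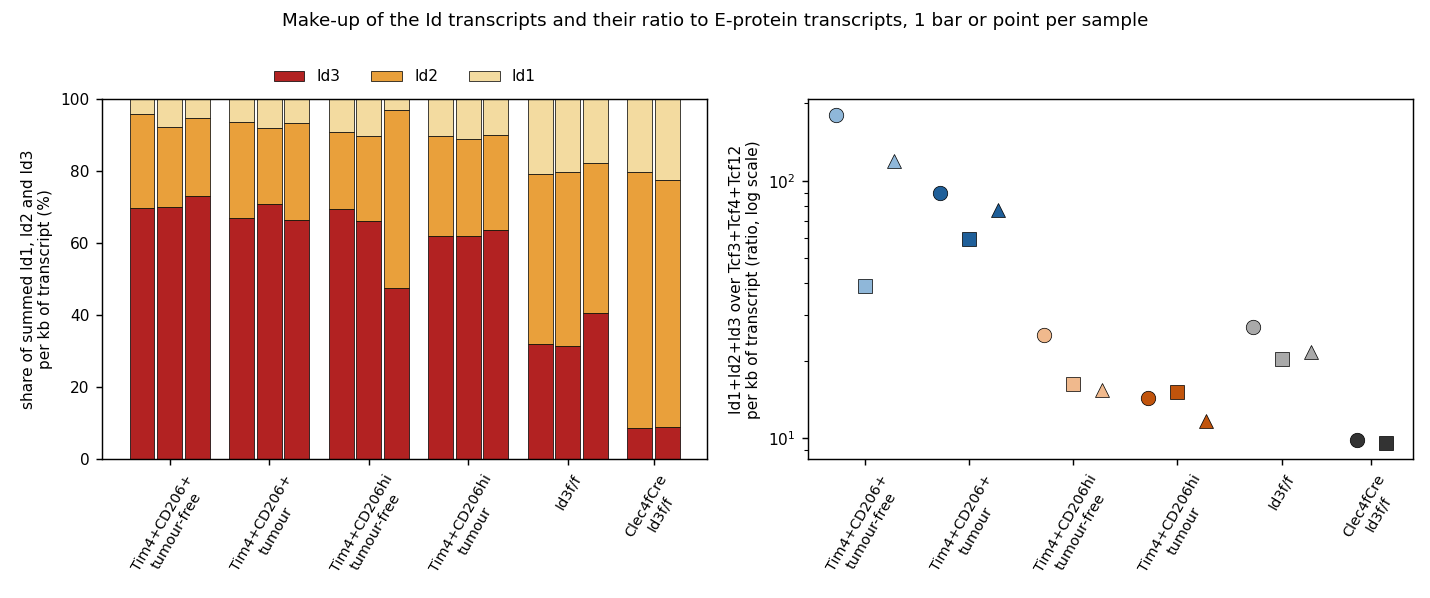
Left, share of Id3, Id2 and Id1 in their summed level per kb of transcript (%), 1 bar per sample. Right, ratio of the summed Id to the summed E-protein transcripts per kb on a log axis, 1 point per sample. Id3 holds 47.4% to 73.1% in the subset tables, 31.4% to 40.5% in Id3f/f and 8.76% to 8.88% in Clec4fCreId3f/f samples, and the ratio is lowest in Clec4fCreId3f/f KCs (9.56 and 9.82).

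Back-transformed, the values summed to 34080852 to 39676440 per sample in the Tim4+CD206+ table and 32641263 to 35096456 in the Tim4+CD206hi table. The sums were 21815438 to 24042499 in the Id3 table. The values were already normalised between libraries, so these sums do not show read depth. Some libraries stood apart. In the tumour-free Tim4+CD206hi replicate 3, genes with a transcript GC content over 60% (636 tested genes) lay at a median of 0.87 log2 below their table means, while the other 5 libraries of that table lay between -0.13 and 0.34. KC markers were high in all samples: the 12 genes of the list summed to 877217 to 2584360 normalised counts, although 3 of 12 fell with tumour in Tim4+CD206+ KCs (0 of 12 passed limma's adjusted p in Tim4+CD206hi KCs, 4 at an unadjusted p under 0.05). Markers of other cells moved with tumour. Of the epithelial list, 8 of 8 tested genes rose in both subsets, 4 of 8 monocyte genes rose in both, and 4 and 3 of 8 neutrophil genes rose in Tim4+CD206+ and Tim4+CD206hi KCs. The summed epithelial level was 1802 to 3595 normalised counts in tumour-free and 39418 to 46396 in tumour Tim4+CD206+ samples, and 1960 to 2535 against 51356 to 55310 in Tim4+CD206hi samples. Of the hepatocyte list 6 of 10 and 5 of 10 genes fell, while 1, Apob, rose in Tim4+CD206hi KCs, and of the B cell list 4 of 6 and 2 of 8 tested genes fell. Of the stellate cell list 0 of 8 and 2 of 8 genes fell, and 1 of 8 plasmacytoid dendritic cell genes fell in Tim4+CD206+ KCs. With the replicate block 8 of 10 hepatocyte, 3 of 14 liver endothelial, 6 of 8 monocyte and 6 of 8 neutrophil genes passed in that subset. No gene was called in the T or NK cell list in either subset with limma, with 4 and 7 of 10 genes at an unadjusted p under 0.05. In bulk samples fewer cells of a type and less RNA per cell cannot be told apart, and the part of these cells in the values above and below was not tested.

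With tumour in Tim4+CD206+ KCs, Id3, the ID protein gene that defines the study, was 14.69, 14.73 and 14.82 in tumour-free and 14.30, 14.27 and 14.24 in tumour samples (log2 normalised counts). All 3 tumour samples lay below all 3 tumour-free samples. The difference of -0.47 (SE 0.14, 95% interval -0.79 to -0.16, 0.72-fold) did not pass the test across genes (limma adjusted p = 0.116). It was -0.48 with an adjusted p of 0.0288 when tumour-free replicate 2 was left out, and over 14 alternatives the adjusted p ranged from 0.0288 to 0.356. Same-numbered samples of this table deviated together, although the labels do not say that the numbers link samples. With GC and length trends taken out and the replicate number as a block the difference was -0.58. Its limma adjusted p was 0.0432, and 0.112 with the block alone.

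Id2, whose protein pairs with E proteins in the same way, was 13.25, 13.05 and 13.06 in tumour-free and 12.95, 12.50 and 12.93 in tumour Tim4+CD206+ samples. Here too the groups did not overlap. The difference was -0.33 (SE 0.17, 95% interval -0.72 to 0.07, limma adjusted p = 0.404), and with GC and length trends taken out and the replicate block it was -0.68 (adjusted p = 0.0215), the only one of its 14 alternatives past the threshold. Id1 was 10.21, 11.11 and 10.54 in tumour-free and 10.46, 10.69 and 10.46 in tumour samples. Its groups overlapped, with a difference of -0.08 (SE 0.24, 95% interval -0.64 to 0.48, limma adjusted p = 0.925).

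Among the E proteins Tcf12, which encodes HEB, was 6.56, 7.62 and 7.61 in tumour-free and 7.68, 7.73 and 7.93 in tumour Tim4+CD206+ samples. The tumour samples lay above the tumour-free ones, though close to replicates 2 and 3, and the difference of 0.52 did not pass (SE 0.33, 95% interval -0.24 to 1.27, limma adjusted p = 0.498). Tcf3 was 8.05, 11.01 and 8.92 in tumour-free samples and 8.87, 9.73 and 9.17 in tumour samples. Replicate 2 was the highest in both groups, and the difference of -0.07 carried a 95% interval from -1.58 to 1.44 (limma adjusted p = 0.977), so this table could not resolve a change of Tcf3 in either direction. Tcf4, which encodes E2-2, was 8.998, 8.69 and 9.09 against 9.27, 8.63 and 9.05, and Elk1 was 8.79, 9.17 and 9.42 against 8.85, 9.46 and 8.76. Their groups overlapped, with differences of 0.06 (95% interval -0.50 to 0.61) and -0.10 (95% interval -0.72 to 0.51).

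Of the 7 genes, 0 passed limma's adjusted p in Tim4+CD206+ KCs, against 3.54% of all 13233 genes tested. An unadjusted limma p under 0.05 was found for 1, Id3. The share of all genes at an unadjusted p under 0.05 was not counted in any comparison. Groups without overlap were found for 3 of 7, against 23.4% of all genes.

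With tumour in Tim4+CD206hi KCs, Id2 was 12.92, 12.998 and 13.48 in tumour-free and 12.67, 12.68 and 12.54 in tumour samples. Each tumour sample was below each tumour-free one, and the difference of -0.50 (SE 0.19, 95% interval -0.95 to -0.06, 0.71-fold) did not pass (limma adjusted p = 0.191, 0.0829 to 0.499 over 14 alternatives). Without tumour-free replicate 3 the difference of Id2 was -0.33 (limma adjusted p = 0.103). Id3 was 14.62, 14.49 and 13.43 in tumour-free and 13.84, 13.88 and 13.82 in tumour samples. The tumour samples lay close together, below tumour-free replicates 1 and 2 and above replicate 3. The difference was -0.34 (SE 0.31, 95% interval -1.07 to 0.40, limma adjusted p = 0.548), and it was -0.71 when tumour-free replicate 3, the library low in GC-rich transcripts, was left out, with an adjusted p of 0.00929 (range 0.00929 to 0.848 over 14 alternatives). The transcript of Id3 has a GC content of 55.6%, above that of 80.4% of coding genes. With GC and length trends taken out and all samples kept, the difference was -0.55 and did not pass (limma adjusted p = 0.211). The part of GC content in the level of Id3 was not tested further.

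Id1 in the same subset was 11.25, 11.34 and 9.09 in tumour-free and 10.81, 10.94 and 10.70 in tumour samples. Replicate 3 was again the low sample. The difference was 0.26 (SE 0.57, 95% interval -1.08 to 1.59, limma adjusted p = 0.814) and turned to -0.48 without replicate 3 (adjusted p = 0.0655, the lowest of its 14 alternatives). The changes of Id3 and Id1 with tumour in this subset thus rest on whether that library is counted.

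Of the E proteins in Tim4+CD206hi KCs, Tcf4 was 12.59, 12.36 and 12.95 in tumour-free and 12.01, 12.18 and 12.16 in tumour samples, without overlap. The difference was -0.52 (SE 0.19, 95% interval -0.96 to -0.07, 0.70-fold, limma adjusted p = 0.177), and it was -0.65 when tumour-free replicate 2 was left out (adjusted p = 0.0318, range 0.0318 to 0.507 over 14 alternatives). Of all 14561 genes tested 3634 passed in that fit. Without tumour-free replicate 3 the difference of Tcf4 was -0.36 (limma adjusted p = 0.128). Markers of liver endothelial cells moved beside it: 14 of 14 had negative differences, 6 of them called, and their summed level was 306559 to 450546 normalised counts in tumour-free and 169335 to 209251 in tumour samples. In the Tim4+CD206+ table, where Tcf4 was 8.63 to 9.27, the same markers summed to 13919 to 37853. Their part in the level or the difference of Tcf4 was not tested. Of the 8 markers of plasmacytoid dendritic cells, in which E2-2 is the defining factor, 0 passed limma's adjusted p in this subset, 1 had an unadjusted p under 0.05, and the sum was 1213 to 2387 normalised counts without and 1184 to 1402 with tumour.

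Tcf3, the gene of the E2A products, was 9.45, 11.34 and 8.09 in tumour-free and 10.88, 10.65 and 11.20 in tumour Tim4+CD206hi samples. The tumour-free samples spread over 3.26 log2 units and replicate 2 lay above all tumour samples. The difference was 1.28 (SE 0.73, 95% interval -0.44 to 3.00, limma adjusted p = 0.356), and it was 2.14 when tumour-free replicate 2 was left out (adjusted p = 0.0109, range 0.0109 to 0.628 over 14 alternatives). With that library left out 3634 of all 14561 genes tested passed. Without tumour-free replicate 3 the difference of Tcf3 was 0.51 (limma adjusted p = 0.618). The GC content of the Tcf3 transcript, 61.0%, is above that of 96.7% of coding genes. In this table Tcf3 was lowest in the tumour-free samples whose GC-rich genes were lowest (-0.87 and -0.13) and highest where they were highest (0.34). In the Tim4+CD206+ table GC-rich genes were highest in tumour replicate 2 (0.21, Tcf3 9.73), but Tcf3 was highest in tumour-free replicate 2 (0.19, Tcf3 11.01). With GC and length trends taken out the difference in Tim4+CD206hi KCs was 0.73. The tumour-free samples of this subset were then still spread, at 9.60, 11.08 and 9.03. The part of GC content in the level of Tcf3 was not tested further.

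**Figure D3:**
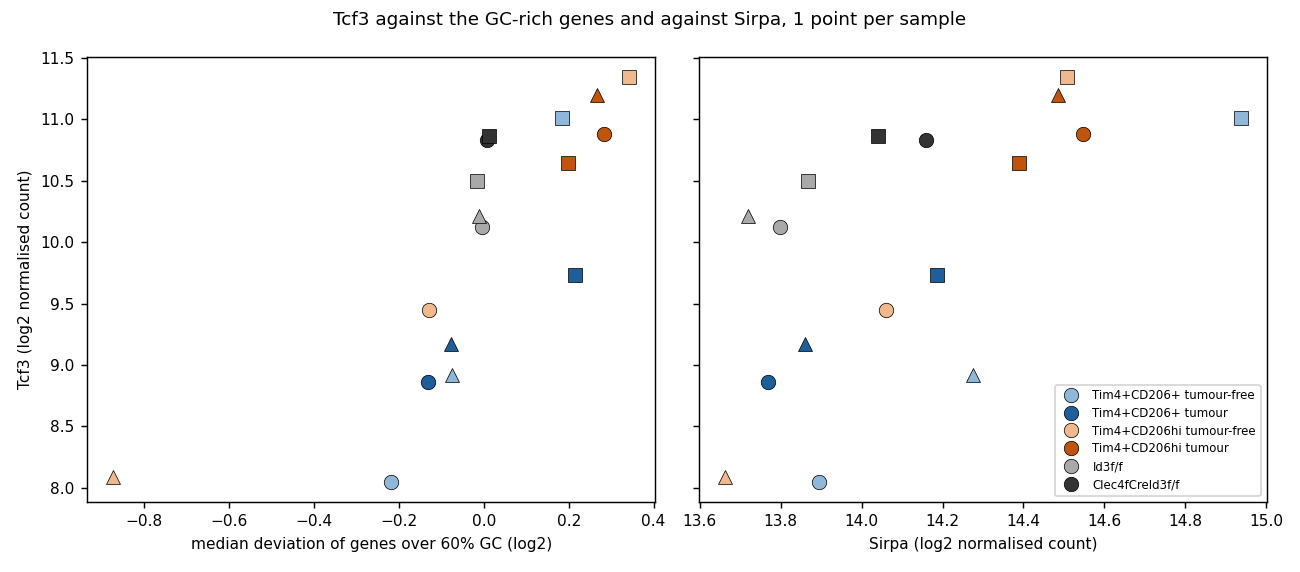
Tcf3 in each sample (log2 normalised count) against the median deviation of genes over 60% GC from their table means (left, log2) and against Sirpa (right, log2 normalised count), coloured by group and shaped by replicate number (circle 1, square 2, triangle 3). The tumour-free Tim4+CD206hi replicate 3 lies at -0.87 on the left with Tcf3 at 8.09, and the tumour-free Tim4+CD206hi replicate 2 at 0.34 with Tcf3 at 11.34 and Sirpa at 14.51.

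Tcf12 was 10.09, 10.26 and 10.11 without and 10.13, 10.14 and 10.33 with tumour in Tim4+CD206hi KCs, a difference of 0.04 (95% interval -0.33 to 0.42). Elk1 was 9.18, 8.85 and 8.32 without and 9.14, 9.15 and 9.004 with tumour, a difference of 0.31 (95% interval -0.28 to 0.91, limma adjusted p = 0.493). Both groups overlapped for either gene. Here 0 of the 7 genes passed limma's adjusted p, against 7.23% of all 14561 genes tested. An unadjusted limma p under 0.05 was found for 2, Id2 and Tcf4, and the share of all genes at that threshold was not counted. Groups without overlap were found for 2 of 7, against 30.7% of all genes.

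The differences of Id2 and Id3 with tumour were negative in both subsets, at -0.33 and -0.47 in Tim4+CD206+ and -0.50 and -0.34 in Tim4+CD206hi KCs. Those of Tcf4 (0.06 and -0.52), Tcf3 (-0.07 and 1.28), Id1 (-0.08 and 0.26) and Elk1 (-0.10 and 0.31) had opposite signs. Whether any of these responses differs between the subsets was not tested, since the tables were transformed apart.

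**Figure D4:**
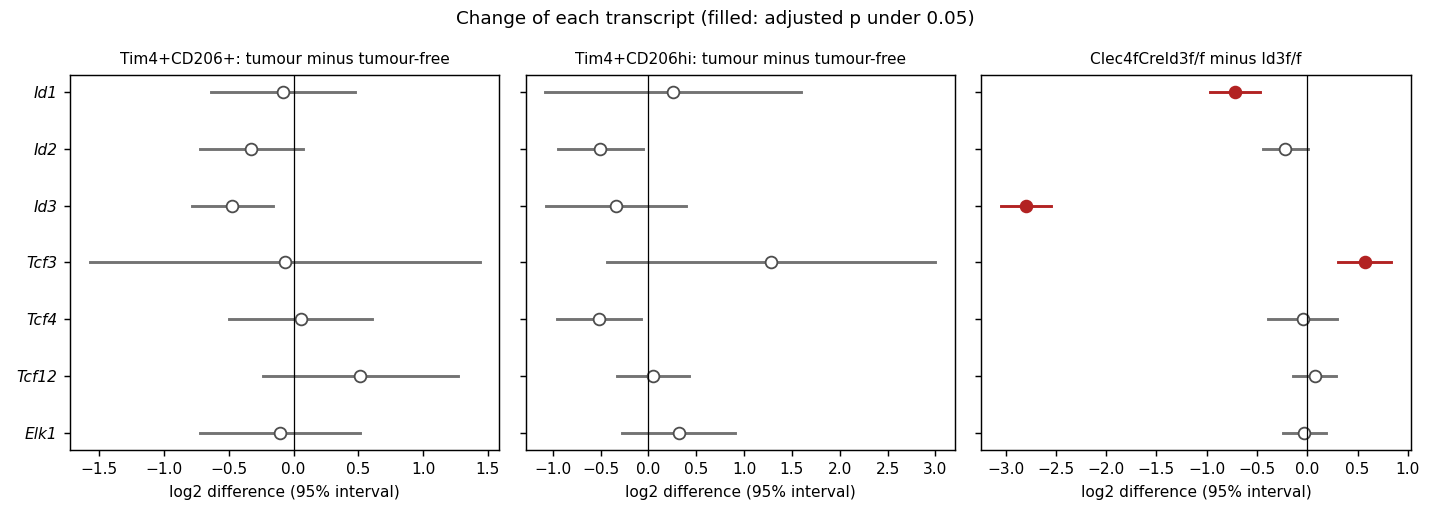
Log2 difference of each transcript in the 3 comparisons (horizontal axes differ), with 95% confidence intervals from limma. Filled red points passed an adjusted p under 0.05. None of the 7 passed with tumour in either subset, and Id1, Id3 and Tcf3 passed between genotypes.

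The deletion was visible in each Clec4fCreId3f/f sample. Id3 was 12.58, 12.46 and 12.82 in Id3f/f KCs and 9.83 and 9.82 in Clec4fCreId3f/f KCs. It fell by 2.80 on the log2 scale (SE 0.11, 95% interval -3.05 to -2.55, 0.14-fold, limma adjusted p = 1.40e-06), and it passed under each of 13 alternatives (adjusted p at most 0.000781). Since the regularised scale pulls low counts toward the mean of the gene, the fall of Id3 may be understated. Ddx3y, a gene of the Y chromosome, was still 6.9996 to 7.006 in these samples, which had the higher Xist given below. The level of Id3 that remained after the deletion is therefore not known. Clec4f itself, the gene that carries the Cre, went from a mean of 17.64 to 16.12.

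Id1, a classical target gene of BMP signalling whose protein also holds E proteins off DNA, was 11.52, 11.37 and 11.19 in Id3f/f and 10.58 and 10.70 in Clec4fCreId3f/f KCs. It fell by 0.72 on the log2 scale (SE 0.11, 95% interval -0.96 to -0.47, 0.61-fold, limma adjusted p = 0.00844). With 1 Clec4fCreId3f/f sample left out the adjusted p was 0.173 or 0.129, with differences of -0.66 and -0.78. The lowest limma adjusted p of Id1 over 13 alternatives, 1.33e-11, came from the replicate block. That fit drops Id3f/f replicate 3 and leaves few samples to estimate the spread from, so this value is not a measure of that spread. Id2 was 13.14, 13.08 and 12.85 against 12.84 and 12.76, so the groups stood apart only narrowly, and the difference of -0.22 did not pass (SE 0.10, 95% interval -0.44 to 0.00, limma adjusted p = 0.216). Without Id3f/f replicate 3 the difference of Id2 was -0.30 (adjusted p = 0.0138). With GC and length trends taken out and all samples kept it was -0.02 (limma adjusted p = 0.924).

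Tcf3 rose with the deletion of Id3. It was 10.12, 10.50 and 10.21 in Id3f/f and 10.83 and 10.86 in Clec4fCreId3f/f KCs, a difference of 0.57 (SE 0.12, 95% interval 0.31 to 0.83, 1.48-fold, limma adjusted p = 0.0241). The call was lost without Id3f/f replicate 1 (0.49, limma adjusted p = 0.0857) and without either Clec4fCreId3f/f sample (0.59 and 0.55). The lowest adjusted p of Tcf3 over 13 alternatives, 4.12e-05, also came from the replicate block, with the same limit as for Id1. In the Id3f/f libraries GC-rich genes lay at a median of -0.017 to -0.004 log2 from their table means. In the Clec4fCreId3f/f libraries they lay at 0.006 and 0.013. With GC and length trends taken out the difference of Tcf3 was 0.44 (limma adjusted p = 0.0415), against 0.57 before. The part of GC content in this difference was not tested further.

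The other E-protein transcripts and Elk1 gave small differences. Tcf4 was 10.07, 10.25 and 10.66 in Id3f/f and 10.30 and 10.26 in Clec4fCreId3f/f KCs (-0.05, 95% interval -0.39 to 0.29, limma adjusted p = 0.890). Tcf12 was 8.41, 8.57 and 8.52 against 8.61 and 8.54 (0.07, 95% interval -0.14 to 0.28). Elk1 was 8.05, 8.03 and 8.22 against 8.09 and 8.05 (-0.03, 95% interval -0.25 to 0.19). Their groups overlapped, and these intervals, not the missed threshold, bound the change of each.

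In all, 3 of the 7 genes passed between genotypes, Id1 and Id3 lower and Tcf3 higher, where 6.44% of 12833 genes tested passed (3.37% lower and 3.08% higher). Groups without overlap were found for 4 of 7, against 41.9% of all genes. Id3 is the gene that was deleted, so its call and its lack of overlap in these counts were set by the design. The genotypes differed in markers of sex as well: Xist, which marks the inactive X chromosome, was 6.33 to 6.38 in Id3f/f and 9.76 to 9.84 in Clec4fCreId3f/f KCs, and Ddx3y, a gene of the Y chromosome, was 9.43 to 9.46 against 6.9996 to 7.006. Genotype, sex and the Cre allele cannot be told apart in this table. The samples of both subset tables had Ddx3y at 7.19 to 12.48 with Xist at or below 0. Of the lists of other cell types, the epithelial, hepatocyte, B cell, T or NK cell, plasmacytoid dendritic cell and stellate cell lists had no called gene between genotypes with limma, with 2 hepatocyte genes and 1 plasmacytoid dendritic cell gene at an unadjusted p under 0.05 and 0 in the others. Other lists held called genes. In the monocyte list Plac8 fell, 1 of 6 tested, and the summed level was 12392 to 15038 normalised counts in Id3f/f and 7463 to 7970 in Clec4fCreId3f/f KCs, without overlap. In the neutrophil list Mmp9 fell, 1 of 7 tested, with sums of 2069 to 2240 and 1656 to 1902, also without overlap. Of the 14 liver endothelial genes Pecam1 rose and Clec4g fell, and the sums overlapped (16963 to 21035 and 17797 to 17919). Of the 12 KC genes, 3 rose and 2 fell. The part of these cells in the differences of Id1, Id3 and Tcf3 was not tested.

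**Figure D5:**
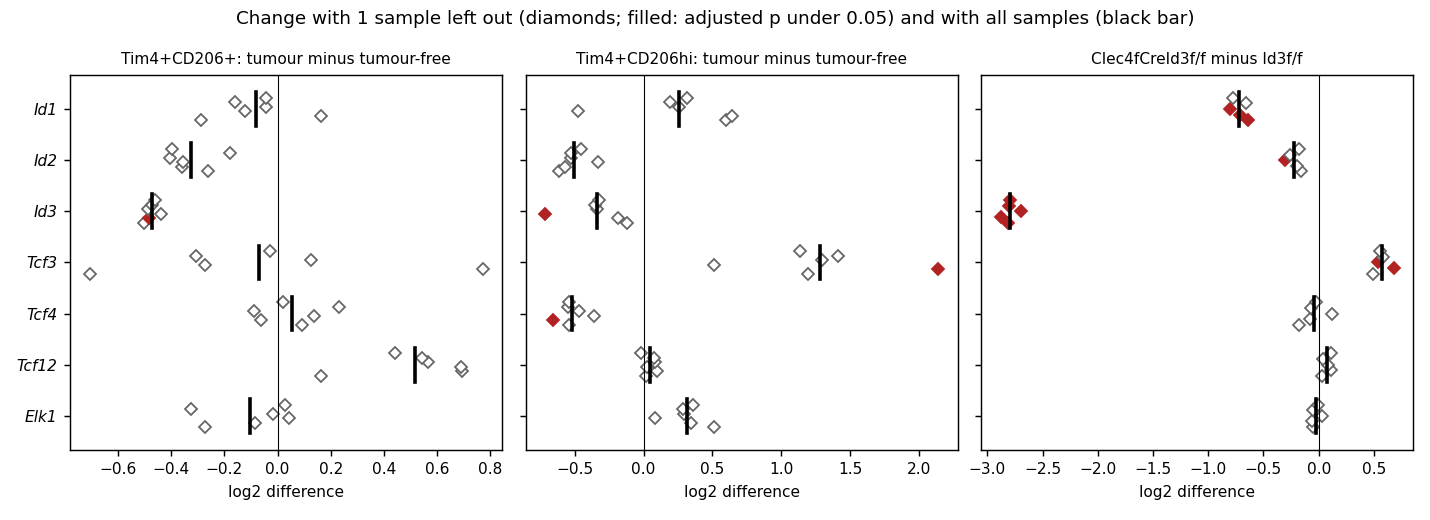
Log2 difference of each transcript with all samples (black bar) and with each sample left out in turn (diamonds, filled red at an adjusted p under 0.05), horizontal axes differing between panels. The diamonds of Id3 between genotypes stay between -2.88 and -2.70, whereas those of Tcf3 run from -0.71 to 0.77 in Tim4+CD206+ and from 0.51 to 2.14 in Tim4+CD206hi KCs.

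The receptor genes of the study's question were read beside these factors. Sirpa was 13.80, 13.87 and 13.72 in Id3f/f and 14.16 and 14.04 in Clec4fCreId3f/f KCs, with no overlap and a difference that did not pass (0.30, limma adjusted p = 0.0572). Clec7a, which encodes dectin-1, a receptor for fungal glucans, was 13.37, 13.51 and 13.22 against 12.70 and 12.63, and fell by 0.70 on the log2 scale (SE 0.10, limma adjusted p = 0.00580). The study selected both receptors from work on these mice, so their direction is not independent evidence. With 1 Clec4fCreId3f/f sample left out the adjusted p of Clec7a was 0.129 or 0.148. Sirpa passed under 4 of 13 alternatives (adjusted p 0.0181 to 0.504). Neither passed with tumour in either subset. With the block on the replicate number Clec7a passed in Tim4+CD206+ KCs (0.58, limma adjusted p = 0.0484, against 0.142 without the block). It did not pass there with GC and length trends taken out as well (0.34, limma adjusted p = 0.216). Sirpa passed with tumour only without tumour-free replicate 2 of the Tim4+CD206hi table (0.61, adjusted p = 0.0461, 1 of 14 alternatives).

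Of 30 other helix-loop-helix genes and partners of E proteins, 21 were tested in Tim4+CD206+ KCs and 0 passed limma's adjusted p (4 at an unadjusted p under 0.05), with a median difference of 0.10 against 0.02 over all genes. With the replicate block 2 passed, Bhlhe40 (1.05, adjusted p = 0.0273) and Hif1a (1.08, adjusted p = 0.00850). Of 28 tested in Tim4+CD206hi KCs 1 passed: Mxd1, which encodes a MAX partner that opposes MYC, rose by 1.61 (SE 0.32, adjusted p = 0.0270; 10 of 14 alternatives passed, up to 0.129), and the median was 0.22 against 0.03. Between genotypes 0 of 24 passed (8 at an unadjusted p under 0.05). Id4, the remaining Id gene, was 1.52 to 1.74 in the Tim4+CD206+ table, below the filter on low values, 7.31 to 8.10 in the Tim4+CD206hi table and 6.47 to 6.69 in the Id3 table.

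Of 26 genes of BMP, TGF-beta and SMAD signalling, which acts upstream of Id genes, 1 of 21 tested passed in Tim4+CD206+ and 1 of 23 in Tim4+CD206hi KCs. Both times it was Tgfbr1, which encodes a TGF-beta receptor chain: it rose by 1.20 (SE 0.23, limma adjusted p = 0.0298) and by 0.83 (SE 0.17, limma adjusted p = 0.0263). The call held under 9 of 14 alternatives in Tim4+CD206+ KCs (adjusted p up to 0.119) and 6 of 14 in Tim4+CD206hi KCs (up to 0.166), and with GC and length trends taken out it was lost in both (0.98 and 0.80, adjusted p = 0.0784 and 0.0585). Between genotypes 0 of 21 passed (3 at an unadjusted p under 0.05), and the medians were -0.03, 0.06 and 0.08 in the 3 comparisons against 0.02, 0.03 and 0.00 over all genes. Of 28 ETS factors, SRF and genes of the ERK cascade, which surround ELK1, 0 of 28 passed with limma in Tim4+CD206+ KCs (1 at an unadjusted p under 0.05), and 1, Elf4, with the replicate block (-0.72, adjusted p = 0.0297). In Tim4+CD206hi KCs 1 of 28 passed, Elk3, a ternary complex factor related to ELK1, which fell by 0.90 (SE 0.21, adjusted p = 0.0499; 5 of 14 alternatives passed, up to 0.225), beside the lower endothelial markers given above. Between genotypes 1 of 28 passed, the ETS factor Etv5, which rose by 0.37 (SE 0.09, limma adjusted p = 0.0478). It passed under 5 of 13 alternatives and missed the threshold with no filter (0.0736), with median centring (0.0599), with GC and length trends taken out (0.0996, and 0.0998 with the block) and without Id3f/f replicate 1 or 2 or either Clec4fCreId3f/f sample (up to 0.350).

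Over the 12 samples of the subset tables, each table's gene mean taken out, the genes most like each Id gene were found among 5383 abundant genes. For Id1 they were Dnajb1, a heat-shock co-chaperone gene, Pex14, of peroxisomal import, and Chmp7, of the ESCRT machinery (Pearson r = 0.986, 0.985 and 0.982). For Id2 they were Cdip1, Fam168a and Cr1l, the last a complement regulator gene (r = 0.956, 0.951 and 0.951). For Id3 they were Cmtm3, Ebi3, which encodes a subunit of IL-27, and Mob3c (r = 0.963, 0.951 and 0.947). Between the Id genes themselves r was 0.694 for Id1 with Id3, -0.570 for Id1 with Id2 and 0.0729 for Id2 with Id3. The 12 points share libraries and their GC composition, so these values describe the tables.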

How the data were processed

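The authors sorted KCs by flow cytometry, amplified RNA with the SMART-Seq v4 kit and sequenced paired-end libraries on an Illumina HiSeq. The submitters' processing notes name STAR 2.7.10a, HTSeq, DESeq2 and the build mm10. The deposited values are log2 normalised counts on a regularised scale, although the files name them counts and their headers TPM; back-transformed they are neither whole nor of a fixed sum. Read depth is therefore not known here, since sums of normalised values do not show it, and it limits low genes most. No strand setting is stated in the sources used here.

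From these values each table was fitted by limma 3.58.1 in R 4.3.3 (mean-variance trend, two-sided) over all genes with at least 10 normalised counts in as many samples as the smaller group, with Benjamini-Hochberg adjustment over all of them and a threshold of 0.05. A block on the replicate number, other filters and scalings, and leaving out each sample were tried. Removal of GC and length trends by splines with 5 degrees of freedom was chosen after the data were seen. Same-numbered samples of the Tim4+CD206+ table deviated together (r = 0.350, 0.564 and 0.149), but no label says that the numbers link samples. The labels do not say that the samples of the subset tables came from separate mice, so p-values measure the spread between these samples. The fit was tested on simulated data with the noise of each table and known shifts in abundant genes. Of shifts of 1 log2 unit, 27% were recovered in the Tim4+CD206+, 17% in the Tim4+CD206hi and 91% in the Id3 table. Of shifts of 2 log2 units, 78%, 65% and 100% were recovered. A missed threshold with tumour thus does not show that a gene was unchanged.

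Genes were placed with GENCODE annotation of GRCm38, and promoters came from RefSeq on GRCm38.p6, with windows for 5 of the 7 genes. The named genes are the 7 factors, each called gene of the pathway lists (up to 4 a direction), both receptors, the 3 genes most like each Id gene among those with a mean of 500 normalised counts or more, and Xist and Ddx3y. Single markers of other cells, Bhlhe40, Hif1a and Elf4 were named after their values were seen. These genes and lists were chosen with earlier results of these data known.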

Additional observations from a re-analysis of the deposited data

How the results depend on the processing

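The counts of the 7 genes that passed changed with the processing as follows. In Tim4+CD206+ KCs the 0 became 2 with GC and length trends removed with the replicate block, and 0 to 1 with 1 sample left out. For Tim4+CD206hi KCs the 0 became 0 to 2 with 1 sample left out, and stayed 0 otherwise. Between genotypes the 3 became 4 with the replicate block and 1 to 4 with 1 sample left out. There the block drops Id3f/f replicate 3, which has no partner. Same-numbered samples did not deviate together in the Tim4+CD206hi table (r = -0.0481, -0.132 and -0.0511) or the Id3 table (-0.0733 and -0.0996), so the numbers gave no sign of pairing there. The cause of these changes was not tested.

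Over 287 single-gene alternatives 251 kept direction and side of the threshold, 8 passed newly, 5 no longer passed and 23 changed sign, all of the last in differences that had not passed. In Tim4+CD206+ KCs Tcf4 turned to -0.016 with median centring and to -0.16 with GC and length trends removed, with or without the block, and Elk1 to 0.0075 with GC and length trends removed, with or without the block. In Tim4+CD206hi KCs Tcf12 turned to -0.12 with median centring, -0.054 with quantile normalization and -0.042 with GC and length trends removed, with or without the block. Between genotypes Tcf4 turned to 0.12 with the replicate block and 0.091 with both, and Elk1 to 0.033 with the block. With 1 sample left out, the ranges that crossed 0 in Tim4+CD206+ KCs were -0.29 to 0.17 for Id1, -0.71 to 0.77 for Tcf3, -0.087 to 0.23 for Tcf4 and -0.32 to 0.045 for Elk1. In Tim4+CD206hi KCs they were -0.48 to 0.64 for Id1 and -0.019 to 0.096 for Tcf12, and between genotypes -0.18 to 0.12 for Tcf4 and -0.065 to 0.033 for Elk1.

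Over all genes, the median difference in Tim4+CD206hi KCs moved from 0.03 to -0.13 with median centring, and the calls from 758 higher and 295 lower to 664 and 518 with quantile normalization. The genes called in all went from 469 to 1026 with the block in Tim4+CD206+ KCs, from 1053 to 3634 without tumour-free replicate 2 and to 600 with a filter of a mean of 50 counts in Tim4+CD206hi KCs, and from 827 to 2089 with the block and to 17 without a Clec4fCreId3f/f sample.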

Other observations

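Tcf3 and Sirpa, which the study set in relation through binding of E2A, ranked the libraries alike in 3 of the 6 groups. In tumour-free Tim4+CD206+ KCs replicates 1, 3 and 2 gave 8.05, 8.92 and 11.01 for Tcf3 and 13.90, 14.28 and 14.94 for Sirpa (log2 normalised counts). In tumour samples of that subset replicates 1, 3 and 2 gave 8.87, 9.17 and 9.73 for Tcf3 and 13.77, 13.86 and 14.19 for Sirpa. In tumour-free Tim4+CD206hi KCs replicates 3, 1 and 2 gave 8.09, 9.45 and 11.34 for Tcf3 and 13.66, 14.06 and 14.51 for Sirpa, so within each of these groups both genes ranked the samples alike. In the remaining 3 groups they did not. In tumour Tim4+CD206hi KCs replicates 2, 1 and 3 gave 10.65, 10.88 and 11.20 for Tcf3 and 14.39, 14.55 and 14.49 for Sirpa. In Id3f/f KCs replicates 1, 3 and 2 gave 10.12, 10.21 and 10.50 for Tcf3 and 13.80, 13.72 and 13.87 for Sirpa. In Clec4fCreId3f/f KCs replicates 1 and 2 gave 10.83 and 10.86 for Tcf3 and 14.16 and 14.04 for Sirpa. The values of Tcf3 and Sirpa lay closer together in these groups than in the tumour-free groups of the subset tables.

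Over the 12 samples of the subset tables, with the group mean of each gene taken out, Pearson's r of Tcf3 and Sirpa was 0.974 and Spearman's rho 0.965. With GC and length trends removed first they were 0.954 and 0.937. Over the same samples r of Tcf3 with the median of the GC-rich genes was 0.891. The transcript of Sirpa has a GC content of 54.2%, above that of 73.9% of coding genes, against 96.7% for Tcf3. With the table mean taken out instead of the group mean, r of Tcf3 and Sirpa was 0.896. On that centring the gene most like Id1, Dnajb1, reached 0.986 with it. How many genes reach such values with Tcf3 or Sirpa, or rank the libraries like them, was not counted. These are descriptions over 12 libraries that share GC composition and, within a group, treatment. The pair was chosen after its values were seen.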
